A study of Mus musculus with 6 samples.

Results

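The RNA recovered with an anti-AGO2 antibody from Dicer WT macrophages (AGO2-RIP) was compared with the RNA recovered with control IgG from the same kind of cells (IgG-RIP). The comparison rests on 2 of the 6 arrays of the series, 1 array a side, so nothing checks it against replicates and there is no p-value. Both groups were bone marrow-derived macrophages of LysM-Cre/Dicerwt/wt/Apoe-/- mice, labelled male and 6 to 8 weeks old, grown for 7 days with L929-conditioned medium. Dicer is therefore intact in these cells. By the labels, the Apoe deletion and the LysM-Cre transgene, which is active in the myeloid lineage, are shared with every other group. The groups set beside them are the AGO2-RIP and IgG-RIP of LysM-Cre/Dicerflox/flox/Apoe-/- macrophages (Dicer KO) and the input RNA taken before precipitation. The sources used here do not say how many animals went into an array.

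AGO2 is the Argonaute protein that carries a mature microRNA (miRNA) and pairs its seed, bases 2 to 8, with sites in messenger RNAs. Bound mRNAs are repressed through GW182 proteins, which recruit the deadenylase complexes and the decapping enzymes. RNA that sticks to beads, or to any immunoglobulin, is recovered as well, and the IgG precipitate measures it. In macrophages the let-7, miR-155, miR-17-92, miR-223, miR-21 and miR-146a families are among the well-studied miRNAs.

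The mature sequences of these families are shown because their seeds define the sites searched for in the probes further on. All 9 come from RefSeq (GRCm38.p6), with the seed in capitals, and members with the same seed stand together.
mmu-let-7a-5p: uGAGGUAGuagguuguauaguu
mmu-let-7f-5p: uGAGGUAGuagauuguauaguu
mmu-let-7i-5p: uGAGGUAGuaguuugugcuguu
mmu-miR-155-5p: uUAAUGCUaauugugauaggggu
mmu-miR-17-5p: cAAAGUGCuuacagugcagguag
mmu-miR-20a-5p: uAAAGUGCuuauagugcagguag
mmu-miR-223-3p: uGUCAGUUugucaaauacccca
mmu-miR-21a-5p: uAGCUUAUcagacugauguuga
mmu-miR-146a-5p: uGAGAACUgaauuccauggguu
The 3 let-7 members share the seed GAGGUAG, and miR-17 and miR-20a share AAAGUGC. The let-7a copy used here lies at chr13:48538239-48538260 on the minus strand, miR-155 at chr16:84714143-84714165 on the plus strand and miR-223 at chrX:96242884-96242905 on the plus strand.

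Levels are log2 fluorescence relative to the 75th percentile of the array's own spots, so a level of 0 is the brightness of the spot at that percentile. A difference is the AGO2-RIP level minus the IgG-RIP level, and a difference of 1 is 2-fold. A gene counted as measured when its probe was flagged well above background on both arrays, and of 34755 genes 15334 were measured. A further 2280 genes were above background in AGO2-RIP only, 1628 in IgG-RIP only, and 15513 in neither. Each array had 59305 non-control spots, of which 44.6% were well above background in AGO2-RIP and 42.3% in IgG-RIP, with 0 saturated spots. Probes printed at least 10 times on each array put the spot noise of a difference at 0.23 log2, which covers the array surface and not the precipitation or the cells. With 1 array in each group, array and group cannot be told apart.

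The cells carried macrophage transcripts. Of 18 macrophage markers 17 were measured, among them Itgam with levels of 9.42 in AGO2-RIP, 9.81 in IgG-RIP and 9.82 in input, and Cd68 with 6.97, 6.83 and 8.51. The exception was Lyz2, the lysozyme gene that holds the Cre, which was above background in IgG-RIP only on the pair of WT precipitate arrays. Its levels there were -4.30 in AGO2-RIP and -1.16 in IgG-RIP, against 3.56 and 4.11 in the KO pair. Of markers of other blood and stromal cells, 1 of 12 neutrophil genes, 4 of 11 T cell genes, 1 of 9 B cell genes, 0 of 11 fibroblast genes, 2 of 9 erythroid genes and 5 of 11 osteoclast genes were measured. Above background in AGO2-RIP only were 3 neutrophil, 1 B cell, 2 fibroblast and 1 erythroid gene. In IgG-RIP only, 1 T cell, 1 B cell, 1 fibroblast and 1 osteoclast gene were above it. Cd3d, Cd3g, Mpo and Col1a1 are examples of list members above background on neither array. The 4 measured T cell genes had median levels of 0.61 in AGO2-RIP and 0.92 in IgG-RIP. Over all genes on the array, 15334 of 34755 were measured. The labels give male mice, yet Xist was above background on 3 of 3 WT arrays and 0 of 3 KO arrays, while Ddx3y and Eif2s3y, on the Y chromosome, were above it on 0 WT and 3 KO arrays. Every comparison of WT with KO below carries this difference and that of Lyz2, and their part was not tested.

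Differences ran far in both directions. In AGO2-RIP 3059 genes were higher by 2-fold or more (19.9% of those measured) and 3465 were lower (22.6%). At 4-fold or more the higher genes were the more numerous, 1181 (7.7%) against 492 lower (3.21%). The middle of the distribution ran from -0.93 at the 25th percentile to 0.74 at the 75th, with the median gene at -0.26. In a bulk precipitate, more copies of a transcript per cell and more cells that hold it cannot be told apart. That median moves with the scaling: it was 0.043 with each array centred on its own median, and 0.26 with no scaling, because equal raw brightness on both arrays reads as -0.52 here. The higher genes were 46.9% of those past 2-fold, but 65.5% with median centring, 40.8% with quantile normalization and 67.7% with the normexp background correction. Gene groups are therefore given beside the all-gene median, and 7 of 53 groups, all within 2-fold of it, lay on its other side under at least 1 setting of scaling, background, filter or probe choice. The plot of levels on both arrays shows this spread with a pair of contrasting groups marked.

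**Figure D1:**
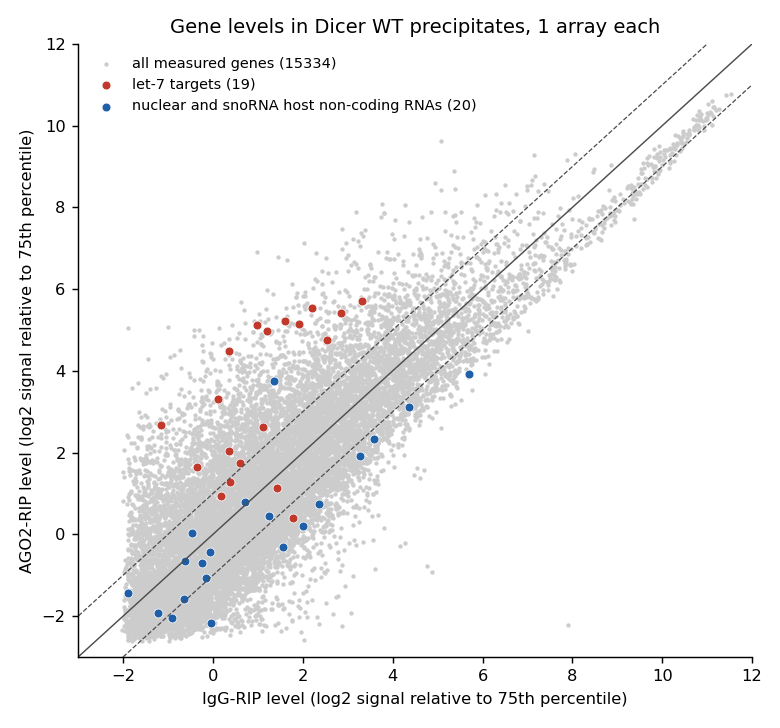
Level of each of 15334 measured genes in AGO2-RIP (y axis) against IgG-RIP (x axis), both as log2 signal relative to the 75th percentile of the array, with the line of equality solid and 2-fold lines dashed. The 19 let-7 targets (red) lie mostly above the upper 2-fold line and 9 of the 20 nuclear and snoRNA host non-coding RNAs (blue) below the lower one, while the brightest genes form a narrow band just under equality.

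Coding and non-coding transcripts stood apart. Protein coding genes had a median of 0.10, 0.36 above all genes, and of 9608 measured 2558 were higher (26.6%) and 1635 lower (17.0%). Most gene lists below hold protein coding genes, for which this median and these shares are the closer reference. RefSeq long non-coding RNA genes had a median of -0.96, 0.70 below all genes, and of 307 measured 10 were higher (3.26%) and 148 lower (48.2%). The array's lincRNA probes, which tile intergenic regions, had a median of -0.76, and of 2356 measured 180 were higher and 863 lower. Genes that carry only a RIKEN clone name followed them, with 35 of 435 higher and 197 lower. The size of this gap depended on the processing. Over the other settings with IgG-RIP as reference, the median relative to all genes ran from 0.05 to 0.36 for protein coding genes. It ran from -0.81 to -0.05 for lncRNA genes, -0.60 to -0.16 for lincRNA probes and -0.65 to -0.05 for RIKEN genes. Beside input, the non-coding classes were not lower in AGO2-RIP: the lncRNA genes had medians of 0.31 for AGO2-RIP over input and 0.96 for IgG-RIP over input, and the protein coding genes -0.21 and -0.57. These comparisons share arrays with the main one, so the values are not independent.

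**Figure D2:**
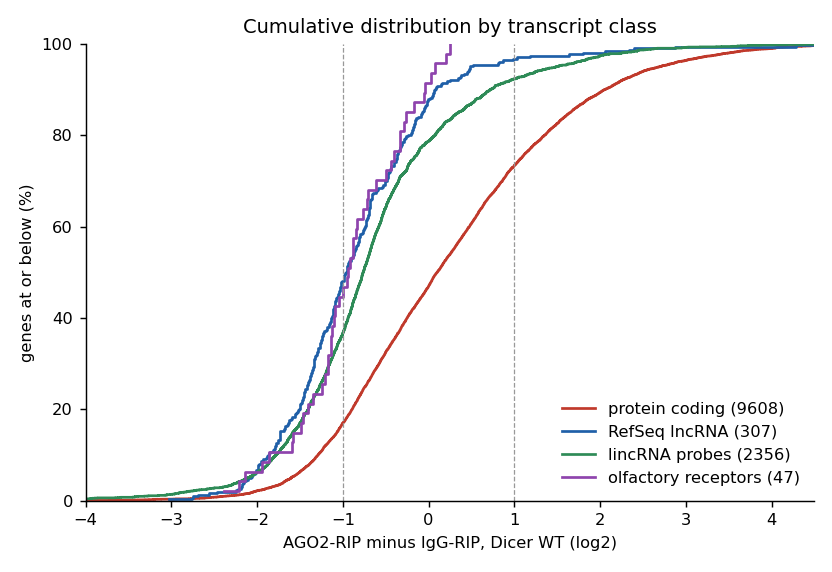
Cumulative share of genes (y axis, %) at or below each AGO2-RIP minus IgG-RIP difference (x axis, log2) for 4 transcript classes, with dashed lines at 2-fold. The curve of protein coding genes lies to the right of the lncRNA, lincRNA and olfactory receptor curves over most of the range.

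Probe brightness and base composition moved with the difference. Genes were sorted into 5 bins along each measure. In protein coding genes, the bin of lowest probe GC content (15% to 35%) had a median of 0.53 with 35.3% of genes at least 2-fold higher, and the bin of highest GC content (51.7% to 86.7%) a median of -0.40 with 15.7%. By input level, the dimmest bin had a median of -0.71 with 8.62% higher and 35.2% lower, and bin 4 a median of 0.32 with 29.6% higher and 10.8% lower. The classes were also compared within bins of the mean level of both precipitate arrays, which is not the input level, and within bins of probe GC. In each bin the medians of lncRNA genes and of lincRNA probes lay below that of protein coding genes. Input level was not held constant there. In the brightest bin of mean level the medians were 0.29 for protein coding genes, -1.09 for lncRNA genes and -0.50 for lincRNA probes. The distance of the probe from the start of the transcript showed no such gradient, with medians between 0.05 and 0.18 over its bins. The part of GC content and brightness in the other results was not tested.

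**Figure D3:**
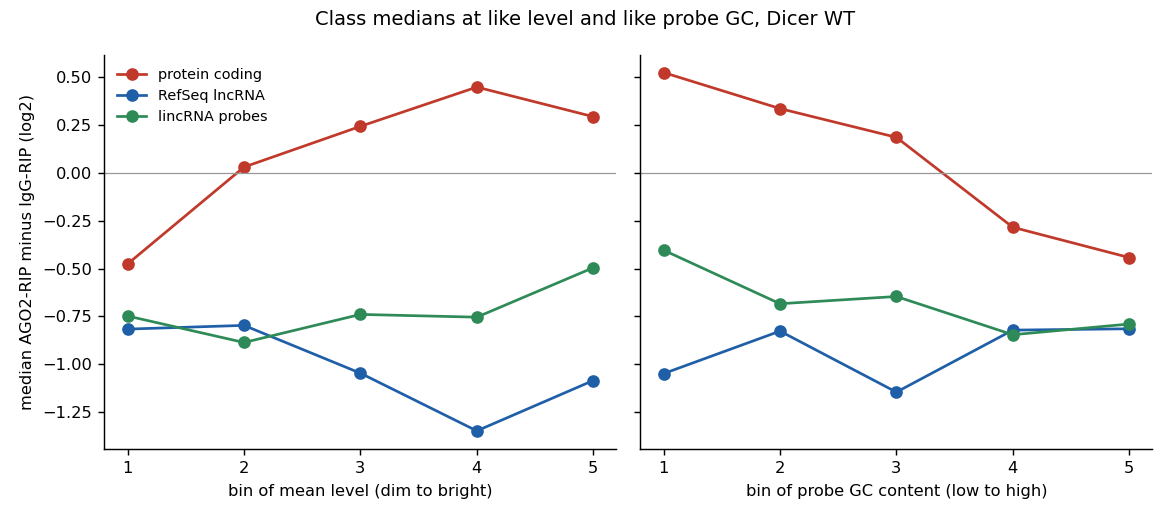
Median AGO2-RIP minus IgG-RIP difference (y axis, log2) of protein coding genes, RefSeq lncRNA genes and lincRNA probes in 5 bins of the mean level of both arrays (left) and of probe GC content (right). The lncRNA and lincRNA points lie below the protein coding points in each bin.

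Which strand a transcript came from is not resolved. Of 1067 intergenic regions with a lincRNA probe on both strands, the forward probe was measured in 664 and the reverse probe in 665, and both were in 487. The label was added to amplified cDNA with random primers, per the labels' protocols. Sense and antisense transcripts of a locus can therefore not be told apart.

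Targets of let-7 stood highest among the miRNA target lists. Of 28 genes, 19 were measured, and 15 of these were higher by 2-fold or more and 1 lower, with a median of 2.39, which is 2.64 above all genes. Cdc34, an E2 enzyme of cell cycle ubiquitination, had levels of 5.13 in AGO2-RIP against 0.97 in IgG-RIP, a difference of 4.16. Arid3b, a DNA-binding regulator, had 4.47 and 0.35, a difference of 4.13, and its second probe gave 2.25. Both genes were far brighter in the AGO2 precipitate. Hmga2, a chromatin architectural protein and the classic let-7 target, had 5.55 and 2.20, a difference of 3.35. Hmga1, its relative, had 5.4 and 2.86. The receptor kinase Tgfbr1 had 5.16 in AGO2-RIP, 1.90 in IgG-RIP and 2.74 in input. Relative to the 75th percentile of each array, all 5 genes were brightest in AGO2-RIP among the 3 fractions.

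Nras, a small GTPase, had levels of 4.74 in AGO2-RIP against 2.53 in IgG-RIP. Not all members followed. Trim71, itself a let-7 target of early development, had levels of 0.41 in AGO2-RIP against 1.79 in IgG-RIP, the lowest difference of the list at -1.38. Nr6a1, an orphan nuclear receptor, was above background in AGO2-RIP only, with a level of 1.45 there. Lin28a and Lin28b, which block let-7 maturation, were above background on neither array, as was Igf2bp1. Cdk6, Fas and Thbs1 were also above background in AGO2-RIP only, and Igf2bp3 was above it in IgG-RIP only. The KO pair, which shares no array with the WT pair, had 7 of 20 measured let-7 targets at least 2-fold higher (10.4% of all genes measured there) and a median of 0.94. Over input, 13 of 21 were higher (15.0% of all genes), with a median of 1.37. Whether the WT and KO values differ was not tested, with 1 array in each.

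**Figure D4:**
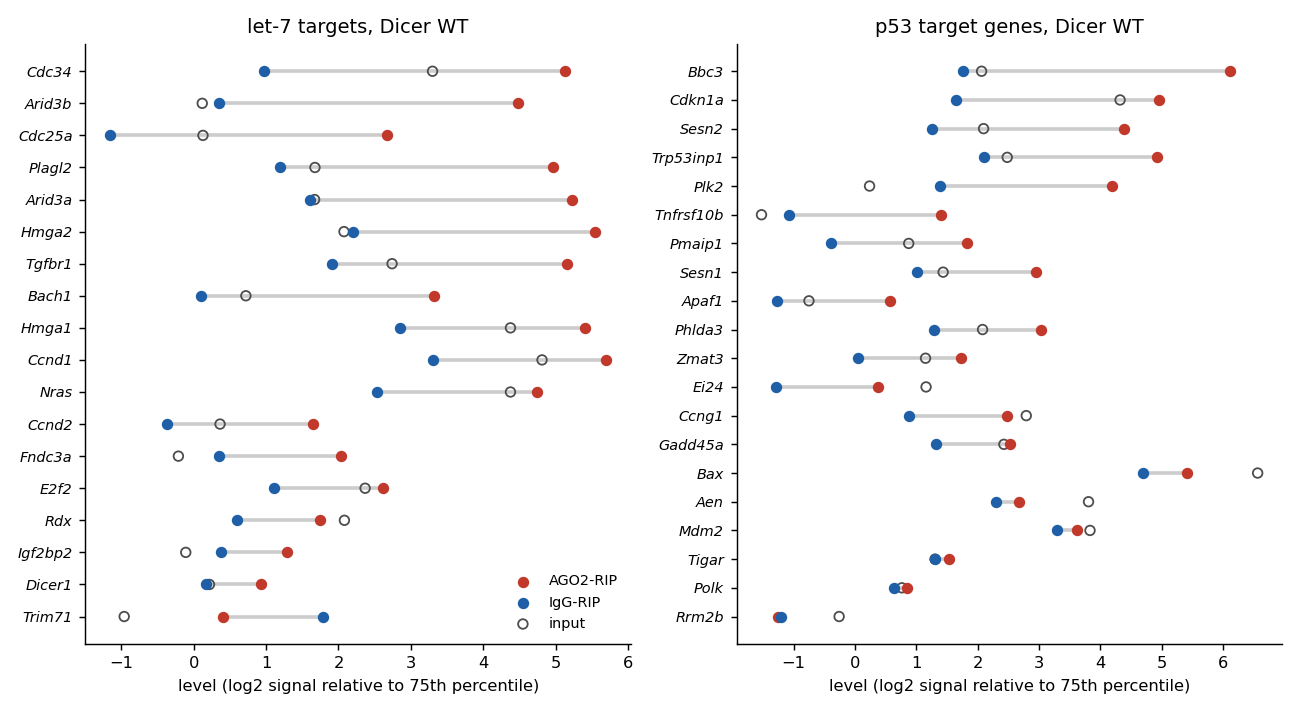
Level (x axis, log2 signal relative to the 75th percentile) of 18 of the 19 measured let-7 targets (left) and the 20 measured p53 target genes (right) in AGO2-RIP (red), IgG-RIP (blue) and input (open circles) of Dicer WT macrophages, 1 array each. The AGO2-RIP point lies right of the IgG-RIP point for 17 of the 18 let-7 targets drawn and 19 of the 20 p53 target genes.

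The other target lists formed a series. Of 19 measured miR-155 targets 12 were higher by 2-fold or more and 0 lower, with a median of 1.39. In the KO pair 3 of 18 were higher (10.4% of all genes there) and 3 lower, with a median of 0.29. For AGO2-RIP over input 5 of 18 were higher (15.0% of all genes) and 1 lower, with a median of 0.04. Sertad2, a transcriptional coregulator, had levels of 2.87 in AGO2-RIP against -1.61 in IgG-RIP, a difference of 4.48. Bach1, a repressor of antioxidant genes and a target of both let-7 and miR-155, had 3.32 and 0.10, and Socs1, an inhibitor of cytokine signalling, had 1.41 and -0.76. At the low end stood Inpp5d, the lipid phosphatase SHIP1 and a well-known miR-155 target, with 0.80 and 1.11. Of 17 measured miR-17-92 targets 6 were higher and 0 lower, with a median of 0.87. Cdkn1a, the p21 inhibitor of cyclin-dependent kinases, had 4.96 and 1.65, and Bcl2l11, the pro-apoptotic BIM, had 2.62 and -0.03. In the KO pair 4 of 17 miR-17-92 targets were higher and 0 lower, with a median of 0.27. Over input 3 of 16 were higher and 1 lower, with a median of 0.44.

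Targets of miR-223, miR-21 and miR-146a stood closer to all genes. For miR-223, 6 of 16 measured targets were higher and 1 lower, with a median of 0.49. The ubiquitin ligase subunit Fbxw7 had levels of 2.94 in AGO2-RIP against 0.34 in IgG-RIP, and the chemokine Cxcl2 was lower, with -1.27 and 0.28. For miR-21, 2 of 12 were higher and 2 lower, with a median of 0.07, and the list's lowest member, Tpm1, had probes between -1.34 and 3.66. For miR-146a, 3 of 8 were higher and 4 lower, with a median of -0.46, which is 0.20 below all genes but 0.04 above them with quantile normalization and 0.61 above them with no filter on dim probes. Relb, an NF-kB subunit, had 0.05 and 2.42, a difference of -2.36, and Irak1, a kinase of Toll-like receptor signalling, had 3.34 and 3.08 with probes between -2.42 and 0.76. These lists share members, since Cdc25a is in both the let-7 and the miR-21 list and E2f1 in both the miR-17-92 and the miR-223 list, so they are not independent of each other.

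The probes themselves could hold a seed match. The 60-base probe sequences of 9608 measured protein coding genes were searched for the heptamer complementary to each seed, and the reverse complement was searched as a comparison. The let-7 match CTACCTC was in 36 probes (0.375%), of which 15 were higher by 2-fold or more and 6 lower, with a median of 0.65. Its reverse complement GAGGTAG was in 12 probes, of which 2 were higher and 4 lower. The shares of higher genes among probes with the match ran from 29.0% (miR-155, AGCATTA, 31 probes) to 45.8% (miR-21, ATAAGCT, 24 probes), against 26.6% of all protein coding genes. Those with the reverse complement ran from 16.7% (let-7) to 36.7% (miR-155, TAATGCT, 30 probes), so for miR-155 the reverse complement had the higher share. The other motifs searched were GCACTTT and AAAGTGC for miR-17, AACTGAC and GTCAGTT for miR-223, AGCTTAT for the other strand of miR-21, and AGTTCTC and GAGAACT for miR-146a. Each of these motifs was in 0.125% to 0.614% of the protein coding probes, and a match in a probe is not a binding site.

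Windows of 27 bases around the let-7 match (in capitals) are shown for the 3 highest genes and the 2 lowest, because they show that the same heptamer stood in probes at both ends. They are array probe sequences, and the positions are those the array annotation gives (mm9).
Gng5: agtccttaacatCTACCTCtttgaatt
Lamtor4: agttgggcttgtgctcaCTACCTCctt
Ndufaf7: ttctttgccttgCTACCTCatcagaga
Ighmbp2: gcatCTACCTCtgtatttgtcaggcac
Cracr2b: catagagagattCTACCTCaaaacaaa
The window of Gng5, a G protein gamma subunit, lies at chr3:146168409-146168435, and its levels were 7.36 in AGO2-RIP against 3.29 in IgG-RIP. That of Lamtor4, a subunit of the Ragulator complex on lysosomes, lies at chr5:138700464-138700490, with levels of 6.65 and 3.14. That of Ndufaf7, a complex I assembly factor, lies at chr17:79346314-79346340, with 1.54 and -1.69. All 3 were at least 4-fold higher in AGO2-RIP. On the minus strand, that of Ighmbp2, a helicase, lies at chr19:3259457-3259483, with -0.37 and 1.65, and that of Cracr2b, a regulator of calcium channels, at chr7:148648967-148648993, with -1.55 and 2.74.

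The genes of the silencing machinery itself were mixed. Ago2 mRNA had levels of 3.29 in AGO2-RIP against 3.82 in IgG-RIP, and its 3 measured probes lay between -0.52 and 0.29. Tnrc6a, a GW182 protein, had 3.16 and 0.18, a difference of 2.99, and Tnrc6c, its relative, had 0.41 and -0.63. Tnrc6b was above background in AGO2-RIP only, with a level of -1.12, and Ago3 was lower in AGO2-RIP, with -1.11 and 0.83. Of 11 measured miRNA biogenesis genes 2 were higher by 2-fold or more and 3 lower. Tarbp2, a Dicer partner, had 4.91 and 2.02, and Drosha, the nuclear processing enzyme, had 0.84 and 2.16. Dicer1 had 0.93 and 0.18, and it is itself a let-7 target.

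Genes of the deadenylation and decapping steps leaned toward AGO2-RIP, with 11 of 26 measured at least 2-fold higher, 1 lower and a median of 0.69. Dcp1a, a decapping activator, had levels of 1.80 in AGO2-RIP against -1.46 in IgG-RIP, and Dcp2, the decapping enzyme, had 1.17 and -0.89. Xrn1, the exonuclease that degrades decapped RNA, was the lower one, with -0.21 and 1.09. The antiproliferative factor Btg1, among the highest by its brightest probe, had a second probe at -2.92.

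Transcripts that are induced in bursts and decay fast were described as lists of their own. Of 16 measured chemokine and cytokine genes 9 were higher by 2-fold or more and 2 lower, with a median of 1.23. Tnfsf9, the ligand of 4-1BB, had levels of 6.91 in AGO2-RIP, 0.97 in IgG-RIP and 1.44 in input. Ccl2, a monocyte chemoattractant, had 8.06, 4.28 and 5.76, and Ccl3, a macrophage inflammatory protein, had 4.95, 0.90 and 3.0. These 3 genes were highest in AGO2-RIP among the 3 fractions. Ccl5, another chemokine, was lower in AGO2-RIP, with 0.68 and 2.51, and input lay below both at -0.67.

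Immediate early transcription factors had 7 of 17 measured genes higher by 2-fold or more and 1 lower. Fosl2, an AP-1 subunit, had 7.14 in AGO2-RIP against 2.01 in IgG-RIP, though its second probe gave 1.22, and Klf2, a zinc finger regulator of macrophage activation, had 4.87 and 2.48. Interferon-stimulated genes had 8 of 16 higher and 2 lower, among them Irf9, a subunit of the interferon-activated factor ISGF3, with 3.94 and -0.54, and Irf1 with 5.52 and 2.04. Zfp36, which encodes the mRNA decay factor tristetraprolin, had 4.96 and 0.88. Among genes above background in AGO2-RIP only, the brightest was Dusp2, a phosphatase of MAP kinases, with a level of 5.58, at least 195-fold higher than in IgG-RIP, where the bound sets the lowest signal well above background against it. Btg2, a relative of Btg1 and a p53 target, had 4.01 there, at least 66.1-fold higher, and Gna11, a G protein alpha subunit, 4.35, at least 83.5-fold higher.

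Stress and growth control genes stood high as well. Of 20 measured p53 target genes 14 were higher by 2-fold or more and 0 lower, with a median of 1.71. Bbc3, the pro-apoptotic PUMA, had levels of 6.11 in AGO2-RIP against 1.77 in IgG-RIP, and Sesn2, a stress-induced inhibitor of TOR signalling, had 4.39 and 1.26. Rrm2b, a ribonucleotide reductase subunit, was the lowest, with -1.25 and -1.20. Apoptosis regulators, which share Bbc3 with that list, had 14 of 20 higher and 0 lower. Casp6, an executioner caspase, had 1.25 and -1.74. Bcl2, the anti-apoptotic founder of its family, had 2.15 and 2.51.

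Of 39 measured cell cycle genes 22 were higher by 2-fold or more and 1 lower, with a median of 1.18. In the KO pair 9 of 39 were higher (10.4% of all genes there) and 5 lower, with a median of 0.21. For AGO2-RIP over input 9 of 41 were higher (15.0% of all genes) and 7 lower, with a median of 0.05. Ccne1, cyclin E1, had levels of 4.80 in AGO2-RIP against 0.53 in IgG-RIP, and Ccnd3, cyclin D3, had 6.85 and 3.01 with 2 probes at 3.83 and 3.87. Top2a, topoisomerase II, was the lower one, with -1.31 and 0.30. Integrated stress response genes had 10 of 20 higher and 0 lower. Ddit4, an inhibitor of TOR signalling, had 6.79 in AGO2-RIP against 1.45 in IgG-RIP, and Chac1, a glutathione-degrading enzyme, had 4.85 and -0.42. In the KO pair the differences of these genes were 7.97 for Ddit4 and 4.84 for Chac1, so they were high there too.

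**Figure D5:**
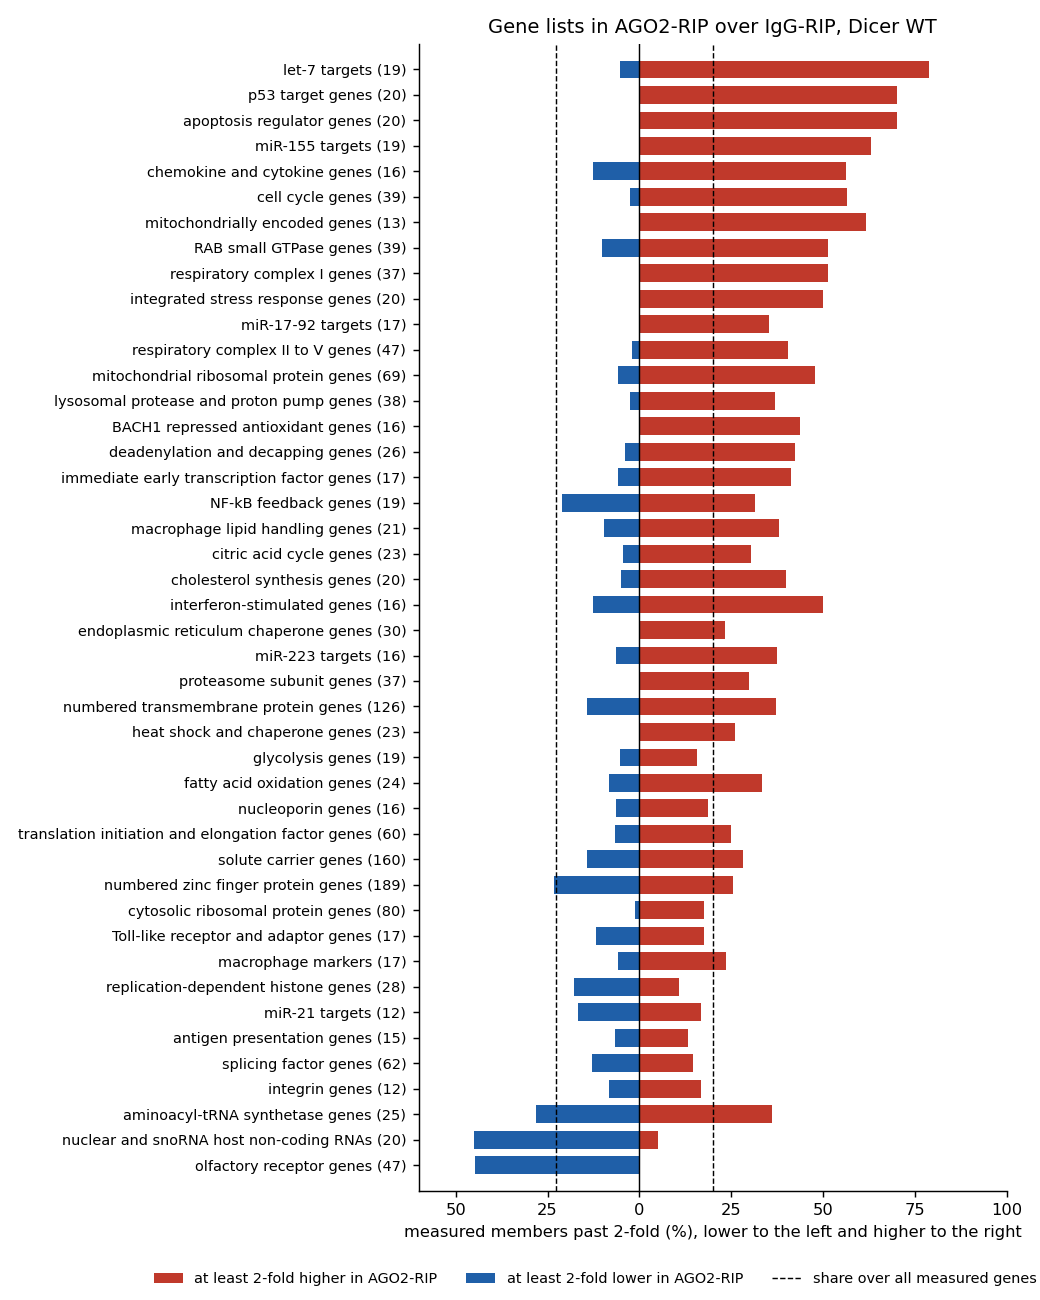
Share of measured members (x axis, %) at least 2-fold higher (red, to the right) and at least 2-fold lower (blue, to the left) in AGO2-RIP than the IgG control for the gene lists with at least 12 measured members, ordered by median, with the number measured in brackets. Dashed lines mark the shares over all measured genes, 19.9% higher and 22.6% lower. Over protein coding genes, which most of the lists hold, the shares were 26.6% higher and 17.0% lower. The let-7 targets stand at the top and olfactory receptor genes at the bottom.

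Organelle genes were mostly brighter in AGO2-RIP than in the IgG control but dimmer than in input. Respiratory complex I had 19 of 37 measured genes higher by 2-fold or more and 0 lower, with a median of 1.04, and complexes II to V had 19 of 47 higher and 1 lower, with 0.86. Ndufa3, with the highest difference of complex I, had levels of 6.88 in AGO2-RIP, 2.28 in IgG-RIP and 4.14 in input. Unlike the median of its group over input, it was brighter in AGO2-RIP than in input. Mitochondrial ribosomal protein genes had 33 of 69 higher and 4 lower, with a median of 0.81, from Mrpl53 with 4.86 and -0.22 to Mrpl14 with 0.47 and 2.79. The 13 mitochondrially encoded genes, which are transcribed inside the organelle, had 8 higher and 0 lower. ND3 had 6.34 in AGO2-RIP, 4.49 in IgG-RIP and 7.42 in input. Over input the medians of these 4 groups were -1.27, -0.94, -1.22 and -1.03 for AGO2-RIP, and -2.31, -2.15, -2.15 and -1.90 for IgG-RIP. By these medians, AGO2-RIP thus lay between a lower IgG-RIP and a higher input.

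By medians, cytosolic ribosomal protein genes showed the same order of fractions with a smaller difference. Of 80 measured 14 were higher by 2-fold or more and 1 lower, with a median of 0.14, and over input their medians were -2.24 for AGO2-RIP and -2.47 for IgG-RIP. In AGO2-RIP 74 of 80 were at least 2-fold lower than in input (26.1% of all genes in that comparison). Single genes could depart from this order. Rpl38 had levels of 8.44 in AGO2-RIP, 5.38 in IgG-RIP and 7.87 in input, so it was brightest in AGO2-RIP. Rps3 had 5.99, 7.34 and 5.29, brightest in IgG-RIP and dimmest in input. Ribosomal protein genes have many processed pseudogenes, so their probes may read near-identical copies. Splicing factor genes had 9 of 62 higher and 8 lower with a median of 0.00, and replication-dependent histone genes 3 of 28 higher and 5 lower. Aminoacyl-tRNA synthetase genes split, with 9 of 25 higher and 7 lower, among them Iars with 2.68 and 0.76 and Yars2 with -1.94 and 0.14.

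Membrane traffic genes included RAB small GTPases, with 20 of 39 measured higher by 2-fold or more and 4 lower and a median of 1.09. Rab3a, a regulator of exocytosis, had levels of 4.63 in AGO2-RIP against -0.25 in IgG-RIP, and Rab2a, which acts between the endoplasmic reticulum and the Golgi, had 6.60 and 3.18. Rab27b, a regulator of secretion, was lower, with -2.37 and 1.08. Lysosomal protease and proton pump genes had 14 of 38 higher and 1 lower, with Ctsl, cathepsin L, at 6.04 and 3.78. Antioxidant genes that BACH1 represses had 7 of 16 higher and 0 lower. The iron exporter gene Slc40a1 had 6.91 in AGO2-RIP against 3.87 in IgG-RIP.

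Numbered zinc finger protein genes, mostly nuclear repressors, spread widely. Of 374 on the array 189 were measured, with 48 higher and 44 lower, while 72 were above background in AGO2-RIP only and 12 in IgG-RIP only. Of 20163 protein coding genes, 1598 were above it in AGO2-RIP only and 706 in IgG-RIP only. A bound of at least 2-fold was reached by 33 of the 72 and 10 of the 12. The filter admitted dimmer signals in AGO2-RIP (-2.62) than in IgG-RIP (-2.03), and its part was not tested. Zfp770 had levels of 4.30 in AGO2-RIP against -1.44 in IgG-RIP, and Zfp954 had -1.67 and 2.10. Zfp367 had probes between -2.33 and 4.03. Members of this family share repeats of similar sequence, so a probe may read more than 1 of them.

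Nuclear and snoRNA host non-coding RNAs stood at the other end. Of 39 listed 30 were on the array and 20 measured, of which 1 was higher by 2-fold or more and 9 lower, with a median of -0.93. Malat1, a nuclear speckle RNA, had levels of 0.74 in AGO2-RIP, 2.37 in IgG-RIP and -1.74 in input. Neat1, the scaffold of paraspeckles, had 3.12, 4.37 and 1.96, and Xist, the RNA of the inactive X chromosome, had 3.92, 5.70 and 0.14. These 3 were brightest in IgG-RIP and dimmest in input. The list did not share that order: over input, 5 of 17 members were at least 2-fold higher in AGO2-RIP and 8 lower, with a median of -0.62, and IgG-RIP over input had 5 higher and 3 lower, with a median of 0.23. Firre, a nuclear repeat RNA, had -0.31 in AGO2-RIP against 1.55 in IgG-RIP, and Rmrp, the RNA of RNase MRP, had 0.19 and 1.99. Pvt1 had the lowest difference, -2.13, though its second probe gave -0.38. Snhg6, a snoRNA host, was the higher one, with 3.75 in AGO2-RIP against 1.35 in IgG-RIP. In the KO pair Malat1 differed by -0.06 and Neat1 by -0.03.

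The olfactory receptor and mucin genes that were measured were also mostly brighter in IgG-RIP. Of 1101 olfactory receptor genes 47 were measured, of which 0 were higher by 2-fold or more and 21 lower, and 33 more were above background in IgG-RIP only against 12 in AGO2-RIP only. The 47 were dim, with median levels of -1.30 in AGO2-RIP and -0.14 in IgG-RIP. The filter admitted signals down to -2.62 in AGO2-RIP but -2.03 in IgG-RIP. In the dimmest input bin of all genes 35.2% were lower. The part of dimness and of the filter in this result was not tested. Of 9 mucin genes 4 were measured and 3 were lower. Muc5b, a gel-forming mucin of airways, had the largest difference of all, -10.13, from levels of -2.23 in AGO2-RIP against 7.91 in IgG-RIP, and it was not well above background in input. In the KO pair Muc5b had -1.22 in AGO2-RIP against -0.75 in IgG-RIP. The high value thus stood on the WT IgG-RIP array and on a single measured probe. Among genes above background in IgG-RIP only, Oaz3, a testis antizyme, had a level of 3.0, at least 49.1-fold lower in AGO2-RIP.

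Genes with several probes allow a check of the probes against each other. Of 3581 genes with at least 2 measured probes, 403 had all of them at least 2-fold higher (11.3%), 252 all at least 2-fold lower (7.04%), and 166 had probes past 2-fold in opposite directions. The highest by its smallest probe value was Lpar6, a lysophosphatidic acid receptor, with levels of 5.88 in AGO2-RIP against 1.34 in IgG-RIP and probes at 4.55 and 4.56. Psenen, a subunit of gamma-secretase, had 7.48 and 2.87, and Uxs1, an enzyme that makes UDP-xylose, had 3.57 and -1.26. Cops7a, a COP9 signalosome subunit, had 5.04 and 0.14, Tsen34, a tRNA splicing endonuclease subunit, had 7.04 and 3.27 over 3 probes, and Spred1, an inhibitor of RAS signalling, had 5.82 and 2.0. These 6 are among the 15 highest by this measure. In the KO pair the differences of the 15 lay between 0.56 (Mark3, a kinase) and 3.97 (Lpar6), with a median of 2.24. There 14 of them were at least 2-fold higher (10.4% of all genes measured there). Their input levels lay between -0.73 and 5.56, below the AGO2-RIP level in each of the 15. The 15 were chosen for a high AGO2-RIP over IgG-RIP, so the comparison with input shares the AGO2-RIP array and is not independent.

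At the low end, Cxcr6, a chemokine receptor, had levels of -0.91 in AGO2-RIP against 2.47 in IgG-RIP with probes at -3.39 and -3.16. Gas7, a growth arrest gene, had -0.43 and 2.13, and Tcof1, a nucleolar protein of ribosome synthesis, had 3.93 and 6.05. Mical2, which oxidizes actin, had 0.19 and 1.86, and Clpb, a mitochondrial chaperone, had 1.39 and 2.99. For Gas7 and Clpb the input levels, 2.05 and 3.40, were close to IgG-RIP, and for Tcof1 the input level, 3.94, was close to AGO2-RIP. Of the 15 lowest by this measure 13 were measured in the KO pair, where 2 were at least 2-fold lower (9.67% of all genes measured there) and the median was 0.01. By the main probe alone, the highest gene was Dcakd, a predicted dephospho-CoA kinase, with 5.05 and -1.89, a 122-fold difference on 1 probe.

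Of genes tied to the model, Apoe had levels of -0.83 in AGO2-RIP against 0.55 in IgG-RIP in these Apoe-/- cells, and where its probe lies relative to the deletion was not determined. Lcor, a nuclear receptor corepressor, had 2.65 in AGO2-RIP, -0.29 in IgG-RIP and 0.42 in input, a difference of 2.94 over IgG-RIP and 2.22 over input. In the KO pair its difference was 0.60, from levels of 2.59 in AGO2-RIP and 1.99 in IgG-RIP. The AGO2-RIP levels of WT and KO were thus close, and the IgG-RIP levels were further apart.

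The genes past 2-fold were followed into the KO pair on the same probe. Of the 3059 higher genes 2890 were measured in the KO pair. There 884 were past 2-fold in the same direction (against 10.4% of all genes measured in the KO pair) and 131 in the other (against 9.67%). Of the 3465 lower genes 3107 were measured there. Among these, 367 were past 2-fold lower (against 9.67% of all genes measured in the KO pair) and 140 higher (against 10.4%).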

How the data were processed

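Each file holds 1 Agilent array with 1 dye (Cy3), extracted with Agilent Feature Extraction 10.7.3.1, per the submitters' processing notes. The deposited values used are the processed signal, an intensity that is background-corrected per the file headers, and the flags for spots well above background, saturated or outlying. Per the labels' protocols, RNA was amplified before labelling of 500 ng cDNA. From these intensities, log2 was taken, the 75th percentile of non-control spots subtracted, outlier spots left out (54 of the probes lost, 55627 kept) and spots of 1 probe averaged. Probes were named through the array's accessions and symbols, updated with the RefSeq gene table (GRCm38.p6, names only), and the array annotation is mm9. A gene is represented by the probe with the highest mean level on both arrays among those measured, and the KO and input values use that probe, except where input replaces IgG-RIP as an alternative, for which the probe was chosen again on AGO2-RIP and input. For genes above background on 1 array, bounds use the lowest signal well above background of the other array.

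With 1 array a side no test was possible, so calls rest on a 2-fold threshold. The fold step was run on simulated data that held spot noise only. That checks the computation and not the variation between precipitates or cells. Members and lists were chosen with earlier results of these data known. Genes are named by these rules: the extremes among genes whose probes agree, the extremes by main probe, the brightest genes above background on 1 array, the highest and lowest list members, and 8 genes of the model. Other list members and the genes of the sequence windows were named after their values were seen. The normexp alternative (offset 50) used limma 3.58.1 in R 4.3.3, and the rest used Python 3.11.15, numpy 2.4.6 and pandas 2.3.3. The number of arrays limits the precision. Some genes are not reported by name here, though the counts over lists include them.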

Additional observations from a re-analysis of the deposited data

Results flagged for a closer look

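Cxcr6 and Diaph1, from the 15 lowest genes whose probes agree, were past 2-fold in opposite directions in the WT and KO pairs. The difference was not tested, with 1 array in each fraction. Other genes did the same, among them the list members Top2a (-1.61 in WT, 1.73 in KO) and Oas3 (-1.35 and 1.40). Of 2890 genes higher in WT and measured in the KO pair, 131 were at least 2-fold lower there (9.67% of all genes there). Of 3107 lower in WT, 140 were at least 2-fold higher there (10.4%). Cxcr6 differed by -3.39 between AGO2-RIP and IgG-RIP in Dicer WT macrophages and by 2.08 in Dicer KO macrophages. For Diaph1, an actin-nucleating formin, the differences were -1.51 in WT and 1.01 in KO.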

How the results depend on the processing

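No paired analysis was possible because each group has 1 array. As reported, 3059 genes were higher and 3465 lower, the higher ones were 46.9% of the genes past 2-fold, and the median of all 15334 measured genes was -0.26. With median centring 2078 genes were lower, the median was 0.043 and the higher share 65.5%. The higher share was 40.8% with quantile normalization. With normexp 1227 genes were lower and the share was 67.7%. With no filter on dim probes 5307 were higher and 7569 lower, the median was -0.51 and the share 41.2%. Among genes above background on all 6 arrays 2225 were lower and the share was 56.4%. With input in place of IgG-RIP the share was 36.0%. At 4-fold, 1181 were higher and 492 lower, a share of 70.6%. With unscaled signal, chosen after seeing the data, 4751 were higher and 1328 lower, the median was 0.26 and the share 78.2%. The cause of these shifts was not tested.

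Over 7 settings of scaling, background, filter and probe choice, 88 of 370 list medians relative to all genes moved by more than the spot noise. Of the 15 lists at least 2-fold from all genes none changed sides. Of the 38 closer lists 7 did, in 14 of 265 values, namely miR-146a targets (up to 0.61), miRNA biogenesis (up to 0.41), aminoacyl-tRNA synthetase (up to 0.25), alternative activation (-0.33), antigen presentation (-0.022), Toll-like receptor (-0.012) and integrin genes (up to 0.021). Of 1239 values of named genes 442 moved by more than the spot noise, and 2 of genes past 2-fold reversed, Tpm1 to 2.08 and Btg1 to -0.38 with the median over a gene's probes. Named genes were not recomputed with each probe counted on its own.

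With input in place of IgG-RIP, 8 of the 15 lists at least 2-fold from all genes changed sides, to -0.21 for integrated stress response, -1.0 for mitochondrial ribosomal protein, -1.03 for complex I, -0.70 for complex II to V, -0.42 for lysosomal, -0.17 for BACH1-repressed, -0.031 for RAB and -0.79 for mitochondrially encoded genes. Of the 38 closer lists 24 did, among them cytosolic ribosomal protein genes at -2.01, histone genes at -1.15, proteasome genes at -1.02, RefSeq lncRNA genes at 0.53 and lincRNA probes at 0.29. Named genes at least 2-fold lower than in IgG-RIP that were higher than in input were Zfp287 at 0.27, 6430548M08Rik at 0.011, Plppr3 at 2.94, Prpf39 at 0.43, Top3b at 0.10, Mapk8ip3 at 0.49, Xist at 3.78, Malat1 at 2.48, Neat1 at 1.16, Trim71 at 1.37, Tpm1 at 0.96, Numb at 0.58, Xrn1 at 0.25, Ccl5 at 1.35, Rps3 at 0.70, Atp5g1 at 1.04 and Zbp1 at 1.29. Those at least 2-fold higher than in IgG-RIP but lower than in input were Rnf11 at -0.65, Rps27l at -0.011, Rpl14 at -0.30, Mrpl34 at -0.80, Mrps24 at -0.38, Sars2 at -0.59, Gars at -0.16, Atp6v1d at -0.28, H2bc4 at -1.97, Txn1 at -0.028, ND3 at -1.08, CYTB at -1.03, COX2 at -0.50, ND1 at -0.34 and C1qc at -0.033. These use the brightest probe on AGO2-RIP and input. On the probe reported elsewhere 29 of the 32 had the same value within 0.01, Tpm1 had 1.09, Mapk8ip3 was lower than input at -0.84, and Zfp287 was not well above background in input.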

Other observations

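Most of the brightest genes were dimmer in AGO2-RIP than in IgG-RIP. There were 196 genes with a mean level of at least 8 on both WT precipitate arrays. Of these, 3 were at least 2-fold higher in AGO2-RIP, against 19.9% of all measured genes. At least 2-fold lower were 56, against 22.6% of all measured genes. Their median difference was -0.80, where equal raw brightness on both arrays reads as -0.52. The median of these genes over input was 0.00, and 196 of 196 were well above background in input. Dennd4a had levels of 10.78 in AGO2-RIP, 11.53 in IgG-RIP and 11.16 in input. Slc10a1, the bile acid transporter of liver cells, had 10.18, 10.97 and 10.10, and Skint7, a gene of the skin and thymus epithelium, had 10.33, 11.07 and 10.77. Only 8 of the 196 lay above 0, among them Fcer1g, the signalling chain of Fc receptors, at 2.14, the ferritin gene Fth1 at 1.28 and the glycolytic enzyme gene Aldoa at 1.26.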
